A study of Mus musculus with 2 samples.

Results

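The dense clusters of distal open sites were runs of DNase I hypersensitive sites that lay close together and away from protein-coding promoters in naive CD8 T cells. They held 908 of the 38223 peaks in the shorter peak list of replicate 2, and 908 of its 21863 distal peaks (4.15%). A peak was distal when it touched no window reaching 1 kb to each side of the start site of a protein-coding transcript. Distal peaks separated by 5 kb or less were joined into chains, and the 144 chains of 5 or more peaks were kept and ranked by the summed signal of their peaks. The chains were thus chosen by the peak positions of replicate 2 and ordered by its signals, so those values are given as a description without a test.

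DNase-seq sequences the ends that the nuclease DNase I leaves in accessible chromatin. The data were 2 libraries of 1 group, biological replicates 2 and 3, each with technical replicate 1. Both came from CD8-positive alpha-beta T cells, naive and resting, of virgin male adult B6CASTF1/J mice aged 2 months, an F1 cross of C57BL/6J and CAST/EiJ. The 2 share a donor label but not a biosample label, and nothing in the labels says that they are from different animals. No treatment, genotype or time was compared, and the comparison made was between chain peaks and other distal peaks, with replicate 3 as the readout that did not choose them.

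Distal hypersensitive sites include enhancers, insulators bound by CTCF, and starts of noncoding transcripts. Groups of neighbouring enhancers often surround genes that define a cell's identity, and in naive T cells such genes include those for the transcription factors TCF1, BACH2, KLF2 and ETS1 and for the homing receptor CCR7. Genes for transfer RNAs also open as short nucleosome-free sites, because RNA polymerase III assembles on a promoter inside each gene, and these genes often lie in groups.

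Replicate 2 was the fuller library, with 38223 peaks in its shorter list against 17061 in replicate 3, and 53597 against 24844 in the longer lists. Low signal values moved in whole steps, and the step of replicate 3 was 6.05 times that of replicate 2. The T cell label was checked at 55 genes of CD3 signalling, the CD8 lineage and the naive programme. In replicate 2, 45 of the 55 had a promoter peak, against 2 of 18 B cell genes, 5 of 20 myeloid genes, 4 of 11 erythroid genes and 7 of 23 non-haematopoietic genes. In replicate 3 the T cell count was 20 in the shorter list and 33 in the longer one. The B cell, myeloid, erythroid and non-haematopoietic counts were 2, 1, 1 and 4 in the shorter list and 2, 3, 3 and 7 in the longer one. Of 28 effector genes, 15 had a promoter peak in replicate 2, and 8 and 11 in the shorter and longer lists of replicate 3. Of 17 CD4 helper genes the counts were 5, 3 and 4. Over all 21827 protein-coding genes, a promoter peak was present at 11019 in replicate 2 and, in replicate 3, at 8924 in the shorter list and 9954 in the longer one. The fall from 45 to 20 of the T cell genes was steeper than that of all genes. In the shorter list of replicate 3 the share of T cell genes with a promoter peak was below that of all genes, so that list alone does not bear out the label. In the longer list it was above that of all genes. For reading the counts of single chains in replicate 3, 29.7% of all distal peaks of replicate 2 were in its shorter list and 49.5% in its longer one. Whether a weaker site was open in fewer cells or less open in each cell cannot be told apart in these bulk libraries.

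Sequences are shown first for the strongest peak of each of the 8 chains at genes of the T cell lists, because these are the chains whose neighbouring genes mark the cell type. The windows are from the plus strand of the mm10 reference (RefSeq GRCm38), at most 300 bases about the middle of the peak, and they are reference letters, not reads. They lie at chr11:99170891-99171190 upstream of Ccr7, chr11:99150021-99150240 within its intron, chr11:52314091-52314390 upstream of Tcf7, chr9:32741101-32741359 in an intron of Ets1, chr8:72322241-72322540 just past Klf2, chr4:32164131-32164430 outside Bach2, chr1:165845441-165845700 in an intron of Cd247 and chr2:117439161-117439360 outside Rasgrp1. Capitals mark matches on either strand to the ETS, RUNX, TCF/LEF, AP-1/BACH, CTCF, KLF/SP, IRF, STAT or NF-kB patterns. Counts of these patterns over all peaks are given with the motif results. Those counts used only the 200 bp about each peak's middle, so a match reaching farther out in a printed window was not counted.
Ccr7 upstream: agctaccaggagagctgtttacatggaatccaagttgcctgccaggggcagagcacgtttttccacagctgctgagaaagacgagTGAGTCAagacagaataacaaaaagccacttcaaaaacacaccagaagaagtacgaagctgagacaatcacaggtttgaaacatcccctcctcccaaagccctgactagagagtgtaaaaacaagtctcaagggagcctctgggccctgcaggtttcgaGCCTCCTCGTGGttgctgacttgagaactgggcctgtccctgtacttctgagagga
Ccr7 intron: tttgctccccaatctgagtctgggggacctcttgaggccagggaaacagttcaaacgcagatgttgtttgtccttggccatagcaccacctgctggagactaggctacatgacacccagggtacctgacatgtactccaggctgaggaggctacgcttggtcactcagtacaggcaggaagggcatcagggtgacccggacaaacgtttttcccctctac
Tcf7: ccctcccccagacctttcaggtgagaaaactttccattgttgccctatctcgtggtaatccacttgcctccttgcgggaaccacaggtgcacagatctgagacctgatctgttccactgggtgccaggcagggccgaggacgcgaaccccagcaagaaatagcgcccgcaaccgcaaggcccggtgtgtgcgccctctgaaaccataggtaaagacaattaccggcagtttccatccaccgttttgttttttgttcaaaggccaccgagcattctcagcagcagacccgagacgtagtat
Ets1: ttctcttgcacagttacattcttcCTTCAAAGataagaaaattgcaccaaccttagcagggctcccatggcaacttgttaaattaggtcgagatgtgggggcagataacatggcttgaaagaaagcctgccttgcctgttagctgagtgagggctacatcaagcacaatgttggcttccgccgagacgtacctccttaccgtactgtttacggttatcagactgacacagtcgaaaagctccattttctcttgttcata
Klf2: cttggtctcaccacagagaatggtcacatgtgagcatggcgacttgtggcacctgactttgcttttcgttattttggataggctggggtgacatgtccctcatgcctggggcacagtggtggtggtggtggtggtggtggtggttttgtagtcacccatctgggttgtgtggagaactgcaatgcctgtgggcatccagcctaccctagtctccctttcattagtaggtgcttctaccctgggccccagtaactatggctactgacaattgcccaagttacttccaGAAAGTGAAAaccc
Bach2: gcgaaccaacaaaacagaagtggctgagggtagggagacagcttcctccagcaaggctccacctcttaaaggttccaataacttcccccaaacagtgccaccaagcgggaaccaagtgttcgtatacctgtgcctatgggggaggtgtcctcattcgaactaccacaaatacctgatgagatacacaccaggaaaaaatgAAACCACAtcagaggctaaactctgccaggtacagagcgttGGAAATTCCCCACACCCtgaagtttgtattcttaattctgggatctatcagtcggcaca
Cd247: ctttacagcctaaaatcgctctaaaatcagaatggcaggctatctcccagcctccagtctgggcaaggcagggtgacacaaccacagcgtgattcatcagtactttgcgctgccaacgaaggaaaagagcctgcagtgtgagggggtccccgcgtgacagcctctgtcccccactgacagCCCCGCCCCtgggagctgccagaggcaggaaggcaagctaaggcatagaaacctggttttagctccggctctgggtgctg
Rasgrp1: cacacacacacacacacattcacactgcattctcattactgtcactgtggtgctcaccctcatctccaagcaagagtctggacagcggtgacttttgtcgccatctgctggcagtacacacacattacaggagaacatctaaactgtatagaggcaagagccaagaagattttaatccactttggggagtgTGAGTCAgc

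The window upstream of Ccr7 held an AP-1/BACH match and a CTCF match, and the one outside Rasgrp1 held an AP-1/BACH match near its right end. The window outside Bach2 held a RUNX match and, overlapping each other, NF-kB and KLF/SP matches. The Ets1 window held a TCF/LEF match, the Klf2 window an IRF match and the Cd247 window a KLF/SP match. No match to these 9 patterns was found in the Tcf7 window or in the intronic Ccr7 window, which says only that these letters are absent there.

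The strongest peaks of the first 2 chains by summed signal are shown because they belong to the kinds of locus that lead the ranking. Capitals mark KLF/SP matches in the Mid1 window at chrX:169997961-169998220 and the tRNA-Trp gene of the RefSeq annotation, on the plus strand, in the Ctc1 window at chr11:69041701-69041900.
Mid1: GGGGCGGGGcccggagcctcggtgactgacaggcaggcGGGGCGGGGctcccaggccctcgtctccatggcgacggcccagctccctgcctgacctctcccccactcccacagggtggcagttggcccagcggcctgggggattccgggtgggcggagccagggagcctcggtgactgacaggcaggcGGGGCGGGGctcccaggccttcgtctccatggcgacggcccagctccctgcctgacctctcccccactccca
Ctc1: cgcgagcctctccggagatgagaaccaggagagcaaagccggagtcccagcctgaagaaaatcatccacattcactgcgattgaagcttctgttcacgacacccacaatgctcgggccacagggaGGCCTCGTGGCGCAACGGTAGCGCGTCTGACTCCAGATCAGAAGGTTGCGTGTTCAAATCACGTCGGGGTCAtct

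The Mid1 window held the same KLF/SP letters 3 times, within a sequence that repeats itself. In the Ctc1 window the tRNA gene filled the right part of the peak.

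The median chain spanned 7425 bp (lowest 1890, highest 27233), and all chains together spanned 1140 kb. Most were just large enough to qualify: 79 chains had 5 peaks, 30 had 6, 12 had 7 and 23 had 8 or more, up to 27. The median gap between neighbouring peaks of a chain was 658 bp, and the median gap from a chain's edge to the next distal peak was 25103 bp. Summed signals ran from 0.642 to 78.8 with a median of 9.94, in the units of the deposited signal. The strongest peak supplied a median of 32.7% of its chain's signal, and over 50% in 12 chains. At the threshold, the 220 chains of 4 peaks just outside the rule had a median summed signal of 5.75 (1.78 to 26.8), and the 79 chains of 5 just inside it had 7.95 (0.642 to 30.1).

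Some density came from peaks that overlap each other. In 21 chains, 55 peaks overlapped another peak of the same list (6.06% of chain peaks, against 1.07% of other distal peaks). When overlapping or touching peaks were joined, 13 chains fell below 5 separate intervals, among them those at Klf2, Bach2 and Smim15.

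A larger share of chain peaks than of other distal peaks lay between protein-coding genes. Of the 908, 555 (61.1%) lay in no protein-coding gene body, 266 (29.3%) in an intron and 87 (9.58%) touched an exon. The shares of the 20955 other distal peaks were 50.6%, 41.1% and 8.28%. The first class takes in tRNA genes and noncoding transcripts outside protein-coding genes. It held 60 of the 62 chain peaks at tRNA genes. Of the chains, 68 overlapped a protein-coding gene body and 76 did not, and the median distance from a chain to the nearest start site was 14644 bp. A start of a noncoding transcript lay within 1 kb of 103 chain peaks (11.3%), against 7.45% of other distal peaks and 7.61% of all distal peaks. In chains of 4, just outside the rule, the share was 13.1%. Chromosome 11 held most chains, 21 with 122 peaks, and also most distal peaks, 1782, of which 6.85% were in chains. The share was 6.82% on chromosome 17, which held 14 chains, and 8.10% on X. On Y, 20 of only 30 distal peaks (66.7%) were in its 1 chain.

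**Figure D1:**
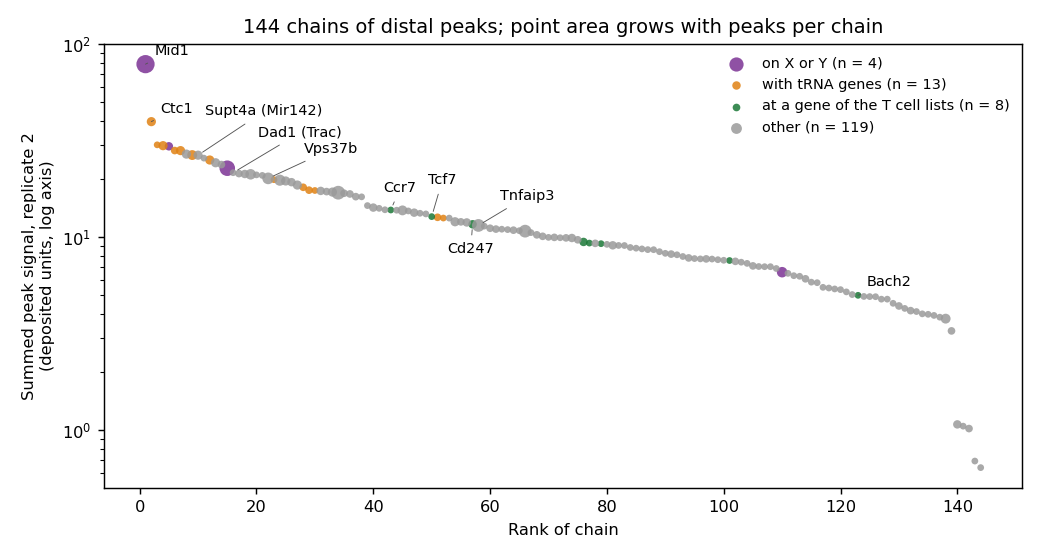
Each point is 1 of the 144 chains, by rank (x axis) and by summed peak signal of replicate 2 in deposited units (y axis, log scale), with larger points for chains of more peaks. Of the 4 chains on X or Y and the 13 with tRNA genes, 3 and 8 are among the first 25, while the 8 chains at genes of the T cell lists begin at rank 43.

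The chains of highest summed signal lay mainly at tRNA gene groups, on the sex chromosomes and at a cluster of NK receptor genes. Of the first 25 chains, 8 had tRNA genes, 3 were on X or Y and 0 were at a gene of the T cell lists. Over all chains, 62 peaks (6.83%) lay within 100 bp of a tRNA gene, against 0.482% of other distal peaks and 0.746% of all distal peaks. Those 13 chains took in 67 of the 403 tRNA genes of the RefSeq annotation (16.6%). The rule asks for neighbouring peaks and so favours genes that occur in groups, as tRNA genes do; how much this adds to the count was not tested.

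The Mid1 chain ranked first, with 27 peaks over chrX:169972225-169999457 and a summed signal of 78.8. Mid1 encodes a microtubule-associated ubiquitin ligase, and the gene spans the edge of the pseudoautosomal region of laboratory mice. Its signal sat in 6 peaks with values of 16.8, 16.4, 16.3, 6.92, 6.83 and 3.999, and the other 21 were between 0.209 and 1.30. The first 5 of those 6 were in the shorter list of replicate 3, with signals of 17.8, 12.9, 15.7, 10.2 and 6.10, and the sixth was in its longer list. None of the other 21 was in either list of replicate 3. At Gm21887, a predicted gene on X, 7 peaks summed to 29.6, and 2 were in the shorter list of replicate 3. The Y chromosome chain near Gm21860 had 20 peaks summing to 22.8, of which 1 was found in replicate 3. Exact stretches of 30 bases were shared among peaks of the same chain for 40 peaks in 12 chains, 19 of them in chains on X and Y. The count covers chain peaks alone, so it does not set them apart from other distal peaks. How the authors placed reads from such copies is not stated.

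The Ctc1 chain at chr11:69035961-69041900 ranked second, with 8 peaks summing to 39.7 and 7 tRNA genes of 7 kinds beside 7 of its peaks. Ctc1 encodes a subunit of the telomere-capping CST complex. Peak signals in replicate 2 were between 2.13 and 7.88, so no single peak dominated. Only 1 of the 8, with a signal of 3.42, was in the shorter list of replicate 3, at 3.03. The peaks of 6.13, 6.89, 5.10 and 7.88 were in the longer list alone, at 4.88, 4.74, 4.70 and 4.65. Other tRNA chains lay near Olfr750 (summed signal 30.1), Hfe2 (29.8), Trim7 (28.1), Hist1h4h (28.1), Osbp (26.7), Abt1 (25.1) and Zfp213 (19.9). At Olfr750, 4 of 5 peaks were in the shorter list of replicate 3, the strongest at 8.63 against 14.1 in replicate 2. At Hist1h4h, where 7 tRNA genes lay beside a histone gene, 1 of 8 peaks was in the shorter list and 6 in the longer one.

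The 3 chains near the Klrb1 genes lay within one region of chromosome 6. Klrb1 genes encode C-type lectin receptors best known from natural killer cells. The chain nearest BC035044 and Klrb1b had 8 peaks summing to 27.0, that nearest Klrb1c had 5 summing to 25.7, and that overlapping Gm44511 had 8 summing to 24.3. In the shorter list of replicate 3, 3, 3 and 4 of their peaks were found. The Gm44511 chain was also 1 of the 3 chains that the same rule built from replicate 3 alone.

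Among chains with neither tRNA genes nor a sex chromosome, the 8 peaks beside Mir142 had the highest sum outside the Klrb1 region. Mir142 encodes a microRNA abundant in blood cells, and the chain (chr11:87744981-87757447, summed signal 26.6) covered the start of its host transcript Mir142hg, with Supt4a the nearest protein-coding gene. Peak signals were 2.60, 2.51, 5.04, 2.82, 2.18, 7.38, 2.59 and 1.4996 from left to right. None of the 8 was in either list of replicate 3, and no position in them had a deposited false discovery rate there. The chain overlapping Frmd8 took in the start of Neat1, a nuclear noncoding RNA, and had 3 of 6 peaks in replicate 3. At Hic1 a chain of 6 peaks took in Mir132 and Mir212, and its strongest peak was 11.4 in replicate 2 and 11.2 in replicate 3.

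Next to the T cell receptor alpha locus, 5 peaks near Dad1 summed to 21.6. The chain (chr14:54227541-54233440) lay 4444 bp from Trac, the constant segment of the receptor's alpha chain, which the annotation does not class as protein-coding. Its signals in replicate 2 were 10.2, 3.81, 3.08, 0.985 and 3.52. The strongest was in the shorter list of replicate 3 at 6.37 and the next in the longer list at 3.43, and the other 3 were in neither. A chain of 7 peaks near Tmem121 lay 30352 bp from Igha, a constant segment of the immunoglobulin heavy chain, and was chosen for mention after its position was seen. Its strongest peak was 7.27 in replicate 2 and 6.37 in replicate 3, and the other 6, between 1.21 and 2.12, were not found.

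The remaining chains among the first 25 included genes of RNA decay, membrane sorting and chromatin remodelling. At Zfp36, which encodes a protein that promotes decay of cytokine mRNAs, 10 peaks shared with Med29 summed to 21.2; 0 were in the shorter list of replicate 3 and 3 in the longer. Vps37b, a subunit of the ESCRT-I sorting complex, had 12 peaks summing to 20.2 with 0 in the shorter list and 1 in the longer. A neighbouring chain at Hip1r and Vps37b had 16 peaks, of which 1 was found in replicate 3. At Chd2, a chromatin remodeller, 1 of 11 peaks had a signal of 16.3 and the others were between 0.104 and 0.589, and only the strong one was found in replicate 3, at 14.3. The Ccr1 chain, near genes for chemokine receptors, had 8 peaks summing to 19.6, with 0 in the shorter list of replicate 3 and 2 in the longer. Near Gnl1 3 of 5 peaks and near Naif1 3 of 7 were in the shorter list. Near Smim15 all 5 were, and that chain covered the start of Zswim6, which the annotation lists as a processed transcript and not as protein-coding. Peaks at that start therefore counted as distal through this class alone. Of the 5 peaks, 4 lay within 1 kb of a noncoding start, and their windows had a mean G+C of 70.9% over the chain.

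The 5 chains with most peaks were Mid1 (27), the Y chromosome chain (20), Hip1r and Vps37b (16), Tnfaip3 (14) and the one near Pced1b (14). With overlapping or touching peaks joined, they held 26, 15, 15, 10 and 12 separate intervals in the same order. The Vps37b chain of 12 peaks then also held 12, more than Tnfaip3. The strongest peaks of the 5 were 16.8, 10.2, 3.48, 1.56 and 1.99, so both strong and weak peaks occurred in crowded chains. Tnfaip3 encodes A20, an inhibitor of NF-kB signalling. Its 14 peaks at chr10:18999461-19009605 had signals between 0.560 and 1.56, and none was in either list of replicate 3. The 14 peaks near Pced1b were between 0.172 and 1.99, with 0 in the shorter list of replicate 3 and 5 in the longer.

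**Figure D2:**
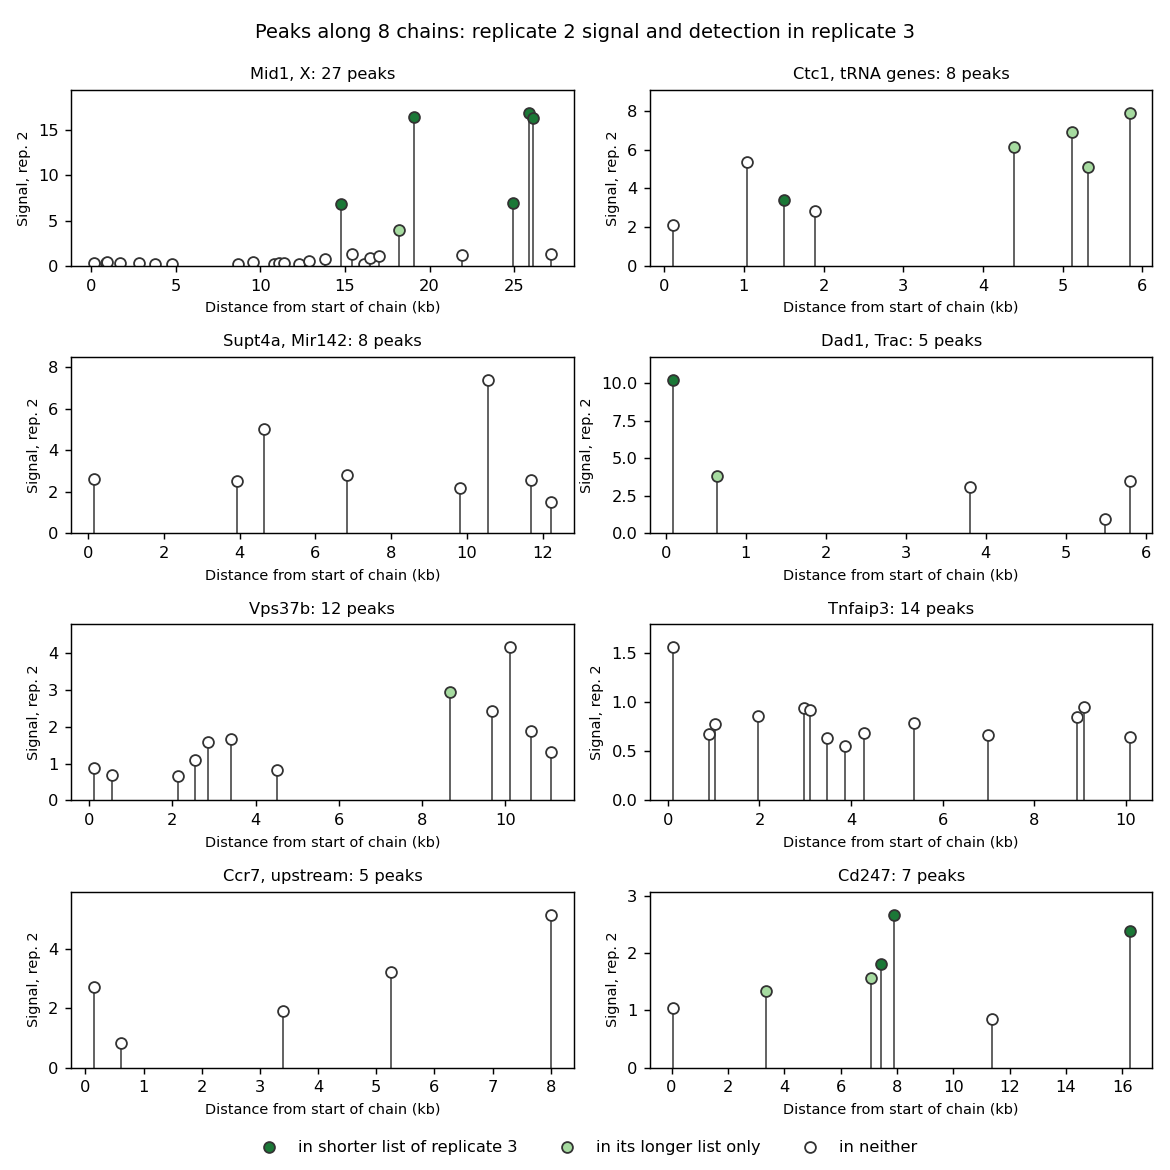
Each panel is 1 chain, with the distance of each peak's middle from the chain's start in kb (x axis) and its replicate 2 signal in deposited units (y axis, its own scale in each panel). Filled circles mark peaks in the shorter list of replicate 3, pale ones those in its longer list only and open ones those in neither; the Mir142, Tnfaip3 and upstream Ccr7 panels hold open circles alone.

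At the T cell genes, 8 chains with 44 peaks lay at 7 of 55 listed genes. The naive programme list gave 5 of 25 genes (Tcf7, Bach2, Klf2, Ets1 and Ccr7), the CD3 and signalling list 2 of 25 (Cd247 and Rasgrp1), and the CD8 lineage list 0 of 5. Of all 21827 protein-coding genes, 0.696% were at a chain. The effector list gave 1 of 28 (Cd69), the CD4 helper list 1 of 17 (Bcl6), and the B cell, myeloid, erythroid and non-haematopoietic lists 0 of 18, 20, 11 and 23. With chains assigned to the nearest start site instead, Lcp2 was added and 0.641% of all genes were at a chain. Gene length and the number of distal peaks near each gene were not matched, and the lists were drawn up with earlier results of these data known.

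Ccr7, the chemokine receptor that brings naive T cells into lymph nodes, was the 1 listed T cell gene with 2 chains. The upstream chain at chr11:99163041-99171240, 7964 bp from the gene, had signals of 2.72, 0.843, 1.91, 3.22 and 5.16. The chain in the gene, at chr11:99150021-99153378, had 3.30, 1.85, 1.44, 1.58 and 1.16. None of these 10 peaks was in either list of replicate 3.

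Tcf7 encodes TCF1, the factor that maintains naive and memory T cells. Its 5 peaks, 26563 bp from the start site, had signals of 1.25, 0.865, 1.00, 6.58 and 3.10. The strongest was in the shorter list of replicate 3 at 3.75 and the next in the longer list at 2.62. Ets1, a founding member of the ETS factors, had 5 intronic peaks between 1.26 and 2.28, none of them in either list of replicate 3.

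Klf2 sustains the quiescence and recirculation of naive T cells. Its 5 peaks had signals of 0.992, 1.20, 2.51, 1.77 and 1.10; 2 were in the shorter list of replicate 3, at 2.30 and 2.26, and 2 more in the longer list. Those 2 peaks overlap in replicate 2, so they are not separate sites. Bach2 encodes a repressor that restrains effector differentiation, and its chain lay 72297 bp from the gene. The 5 signals were 1.81, 0.977, 1.11, 0.515 and 0.597, with 1 peak in the shorter list of replicate 3, at 2.26, and 2 more in the longer list.

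Cd247 encodes the zeta chain of the T cell receptor complex. Its 7 intronic peaks had signals of 1.04, 1.34, 1.57, 1.81, 2.68, 0.851 and 2.39, and 5 were found in replicate 3, 3 of them in the shorter list at 2.48, 3.88 and 3.30. Rasgrp1, an activator of Ras downstream of the receptor, had 7 peaks 95140 bp away with signals between 0.664 and 3.12. The strongest alone was found in replicate 3, in the longer list at 2.44. Of the 44 peaks in these 8 chains, 7 (15.9%, Wilson 95% interval 7.93 to 29.4) were in the shorter list of replicate 3, beside 17.3% of all chain peaks and 29.7% of all distal peaks. In the longer list 15 were found (34.1%, 21.9 to 48.9), beside 31.5% of all chain peaks and 49.5% of all distal peaks.

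A smaller share of chain peaks than of other distal peaks was found in replicate 3, although chain peaks were no weaker in replicate 2. Their median signal in replicate 2 was 1.24, against 1.04 for other distal peaks. In the shorter list of replicate 3, 157 of 908 were found (17.3%, interval 14.97 to 19.9), against 6344 of 20955 other distal peaks (30.3%, 29.7 to 30.9) and 29.7% of all distal peaks. In the longer list the shares were 31.5% and 50.3%, beside 49.5% of all distal peaks. A deposited false discovery rate in replicate 3, which is listed up to 0.05, was present within 34.4% of chain peaks and 53.2% of others, beside 52.4% of all distal peaks. With 2 libraries of 1 group there is no test over samples, the intervals cover counting error only, and peaks of 1 chain are neighbours rather than independent observations.

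The difference was clear from the fourth decile of replicate 2 signal upward, where the intervals of the 2 groups did not overlap. In the strongest decile, 65.7% of chain peaks (interval 58.3 to 72.4) were in the shorter list of replicate 3, against 89.6% of others (88.2 to 90.9). In the ninth decile the shares were 19.6% (13.1 to 28.4) and 70.1% (68.1 to 72.0), and in the eighth 14.6% and 50.1%. In the fourth decile they were 0% (0 to 4.64) and 9.16% (8.001 to 10.5). In the lowest 3 deciles 0 of 101, 0 of 35 and 1 of 64 chain peaks were found, against 1.53%, 3.86% and 5.61% of others, and the intervals overlapped. Other distal peaks weighted to the same deciles gave 38.4%, which put chain peaks 21.1 percentage points lower. Weighted also by quintile of peak width they gave 34.8%. Without chains on X, on Y or with tRNA genes, 759 chain peaks gave 15.9% against 36.3%. The 85 peaks of the tRNA chains gave 32.9% against 68.6%. Peaks that overlap no other gave 17.7% against 39.5%. The 2 libraries also differ in number of peaks, in signal step and in their T cell promoter peaks. The part of any of these in the difference was not tested. Signal alone did not set the calls of replicate 3. Ctc1 peaks of 4.65 to 4.88 there were in its longer list only, with lowest false discovery rates of 0.00439 to 0.00853. Smim15 peaks of 1.13 and 1.22 were in its shorter list, with lowest rates of 8.81e-05 and 9.41e-05. Peaks matched on replicate 2 signal were therefore not matched on the signal needed for a call in replicate 3, and its part was not tested.

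**Figure D3:**
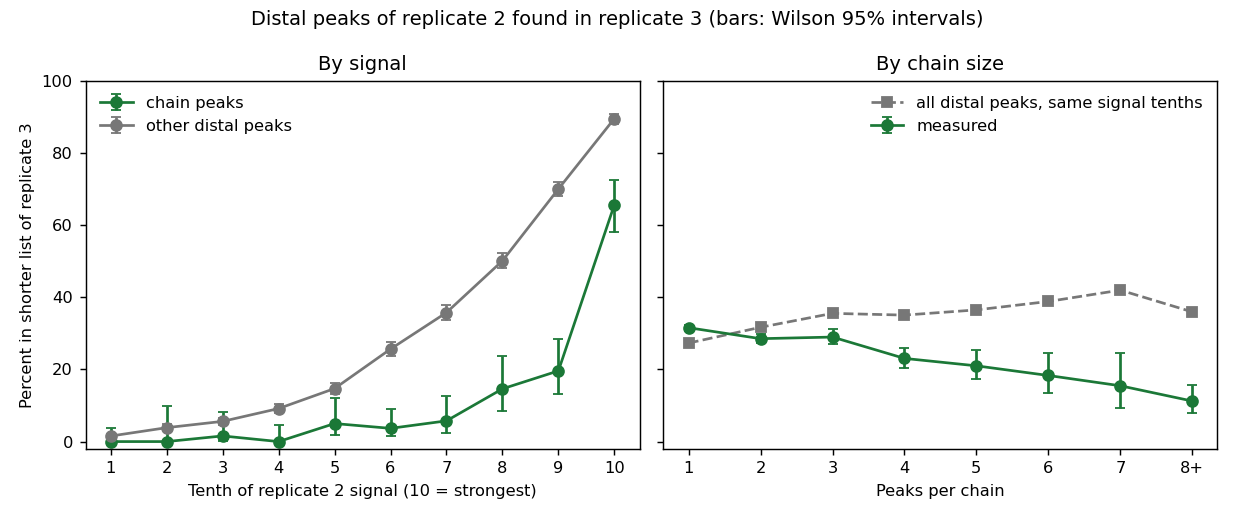
The y axis is the percent of replicate 2 distal peaks found in the shorter list of replicate 3, by decile of replicate 2 signal (left) and by number of peaks in the chain (right), with Wilson 95% intervals. Intervals of chain peaks and other distal peaks overlap in the lowest 3 deciles and lie apart above them, and the measured share falls from 31.6% for lone peaks to 11.2% in chains of 8 or more, while the share of all distal peaks at the same deciles stays between 27.3% and 42.0%.

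The share fell with the size of the chain. It was 31.6% for lone distal peaks, 28.5% for pairs, 29.0% for chains of 3, 23.1% for chains of 4 and 21.0% for chains of 5. It was 18.3%, 15.5% and 11.2% for chains of 6, of 7 and of 8 or more. All distal peaks weighted to the same signal deciles gave 27.3% for lone peaks and 36.0% for chains of 8 or more.

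Single chains ranged from none to all of their peaks. In 70 chains no peak was in the shorter list of replicate 3, in 39 none was in the longer list, and in 2, near Smim15 and Fcgr4, every peak was in the shorter list. The strongest peak was found for 69 of the 144 chains. Among chains of 8 or more peaks, the highest shares were at Gm44511 (4 of 8), Hfe2 (3 of 8), BC035044 (3 of 8), Abt1 (2 of 8) and Itpkb (2 of 8), with ties ordered by summed signal. The Zfp36l2 chain, also 2 of 8, tied with the last pair at a lower sum. Itpkb encodes a kinase of inositol trisphosphate that acts in T cell development, and its peaks of 4.19 and 4.22 in replicate 2 were 3.88 and 3.70 in replicate 3. The lowest share was 0, and of the chains with it the 5 of highest summed signal lay at Mir142, Zfp36, Vps37b, Ccr1 and near Olig3. The Olig3 chain lay 161593 bp from that gene, and its strongest peak of 4.42 was in the longer list of replicate 3 at 4.02.

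Where chain peaks were found in both libraries, their deposited signals were centred close together but varied by peak. The median ratio of replicate 3 to replicate 2 signal was 0.962 over 157 chain peaks (lowest 0.461, highest 2.65), 1.17 over 6344 other distal peaks and 1.06 over 9752 promoter peaks. Only peaks called in replicate 3 enter these ratios, so weak peaks enter only where replicate 3 was high enough for a call. Their median replicate 2 signals were 4.01, 1.999 and 3.94 in the same order, so the ratios of chain and other distal peaks come from unlike peaks. No difference between the groups is read from them. The unit of the signal is not stated, so the ratio describes deposited values and not cuts per cell.

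Footprints, the short stretches protected from cutting within a site, were somewhat sparser in chain peaks. In replicate 2, whose reads also made the peaks, 83.2% of chain peaks held a footprint, against 92.5% of other distal peaks and 92.2% of all distal peaks. The densities were 11.7 and 13.0 footprints per kb of peak. The 880 peaks of chains of 4, just outside the rule, had much the same values as the chain peaks (83.9% and 11.8 per kb). In replicate 3, 19.8% of chain peaks (interval 17.4 to 22.5) and 22.6% of others (22.01 to 23.1) held one, beside 22.5% of all distal peaks, and the densities were 1.63 and 1.96 per kb. Chain peaks at tRNA genes all held a footprint of replicate 2, 62 of 62, and 38 of the 62 (61.3%) held one of replicate 3. These 38 were a similar share to that of all distal peaks at tRNA genes (62.0% of 163).

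Of the 18 motif families counted, CTCF had the widest gap in share between chain peaks and other distal peaks. Windows of 200 bp about each peak's middle were searched on both strands for the consensus letters of each family. The consensus of CTCF, the insulator protein, matched in 37 chain peaks (4.07%, interval 2.97 to 5.57). It matched in 13.4% of other distal peaks (12.9 to 13.9) and in 13% of all distal peaks. Of chain peaks with the match, 35.1% were found in replicate 3, against 46.6% of other distal peaks with it. Among peaks without the match, 16.5% of chain peaks were found in replicate 3, against 36.1% of others at the same signal deciles.

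The GC-rich KLF/SP pattern (GGGGCGGGG or GGGTGTGG) and the CREB pattern (TGACGTCA) went the other way. KLF/SP matched in 7.38% of chain peaks (5.85 to 9.27), 4.59% of others and 4.71% of all distal peaks. CREB matched in 14 chain peaks (1.54%, 0.921 to 2.57), 0.654% of others and 0.691% of all. In promoter peaks the shares were 16.8% and 2.68%. Chain windows held 6.05 CpG dinucleotides on average and other distal windows 4.68, with mean G+C of 52.6% and 51.8%. Without the chains on X, on Y or with tRNA genes, the mean of the 759 chain windows was 5.37 CpG dinucleotides. Windows in chains of 4 held 6.91 CpG dinucleotides, so the trait was not limited to chains of 5 or more.

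The patterns of T cell factors were about as frequent in chain peaks as in other distal peaks. ETS (CCGGAAGT or AGGAAGTG) matched in 6.94% of chain peaks and 7.61% of others, beside 7.58% of all distal peaks. TCF/LEF (CTTTGAAG, CTTTGATG or CTTTGTTC) matched in 4.52% and 4.70%, beside 4.69%, and AP-1/BACH (TGACTCA) in 4.74% and 4.64%, beside 4.65%. RUNX (TGTGGTTT or TGTGGTTA) matched in 4.295% of chain peaks (3.16 to 5.82) and 5.94% of others, beside 5.87% of all. Without the chains on X, on Y or with tRNA genes the RUNX share was 5.01%. The IRF consensus matched in 2.42% and 2.74%, beside 2.73%, STAT (TTCCNGGAA) in 4 chain peaks beside 0.682% of all, and NF-kB in 2 beside 0.384%. Letters of some patterns can overlap, and each window was counted once for each family. The overlapping NF-kB and KLF/SP matches printed outside Bach2 reach past the 200 bp searched there and are not in these counts. A match is a description of the letters and does not show a bound factor.

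Of the remaining families, GATA factor letters (AGATAAG) matched in 2.75% of chain peaks and 1.91% of others, beside 1.94% of all distal peaks. E-box letters (searched as CAGCTG and in the form CACGTG) matched in 20.7%, beside 18.8% of all. Letters of the ZEB repressors (CAGGTG) matched in 19.6%, beside 21.3%. Nuclear receptor letters (AGGTCA) matched in 11.3% beside 10.4%, NFAT (TGGAAAA) in 3.30% beside 3.68%, and FOXO (TGTTTAC) in 2.86% beside 3%. YY1 (AAGATGGC) matched in 1.21% beside 1.66%, and the NRF1 consensus in 0 of 908 beside 0.183%.

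**Figure D4:**
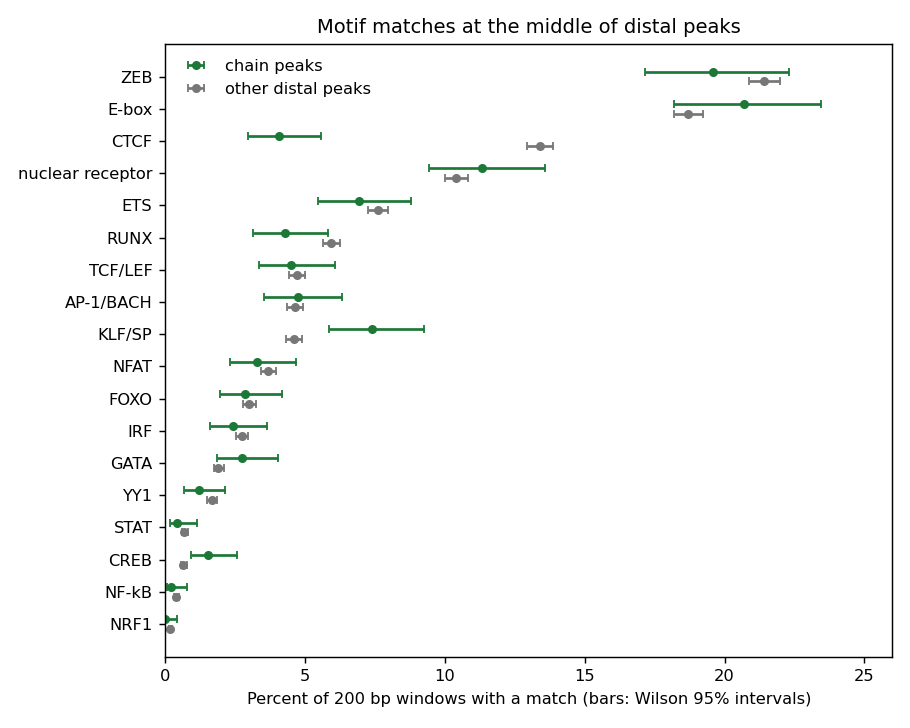
Percent of 200 bp windows with a match to each consensus (x axis) in 908 chain peaks and 20955 other distal peaks, with Wilson 95% intervals, for 18 families (y axis). The intervals lie apart for CTCF, which matched in 4.07% of chain peaks and 13.4% of others, and for KLF/SP and CREB, with larger shares in chain peaks.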

How the data were processed

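Open chromatin was measured by DNase-seq in 2 libraries of 1 group. The authors deposited 2 peak lists per library, with a signal value per peak whose scaling is not stated, together with false discovery rates (q-values) up to 0.05 per stretch of positions and footprint intervals whose score column is 1 constant. All lists are on mm10 and were made from each library's own alignments, per the notes deposited with them. The aligner, peak caller and footprint caller were not given in the sources used here.

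Distal peaks, chains and genes were computed with the GENCODE M21 basic annotation, counting transcripts whose gene and transcript are both protein-coding. Promoter windows covered 1.97% of the genome. A chain took the genes it overlapped, or else the nearest gene body. Peaks counted as found in replicate 3 with an overlap of 1 bp or more. tRNA genes and sequence came from RefSeq GRCm38, whose 21 chromosome lengths matched mm10. Each peak of the shorter list of replicate 2 held a false discovery rate of at most 0.000993. Read totals are not in the files, so depth was not measured, and the signal step, whose scaling is not stated, is the only value that may reflect it. Intervals are Wilson 95% and cover counting error only. No test was made, since there is 1 group of 2 libraries.

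Named chains were the 25 of highest summed signal, the 5 with most peaks, those at genes of the T cell lists and of the other lists, and the 5 highest and 5 lowest shares in replicate 3 among chains of 8 or more peaks, with ties by summed signal. The members and lists were chosen with earlier results of these data known. Alternatives changed the gap, the chain size, the start sites, the peak lists, the overlap, the gene assignment and the library. Scripts were tested on simulated data and ran under Python 3.11.15 with pysam 0.24.0, scipy 1.17.1, pandas 2.3.3, matplotlib 3.10.9 and numpy 2.4.6.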

Additional observations from a re-analysis of the deposited data

How the results depend on the processing

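The share of chain peaks in replicate 3 stayed below that of other distal peaks of the same signal decile under every alternative that gave a value. Only the difference between these shares could reverse, since counts and single shares have no sign. That difference was -21.1 percentage points as reported, -18.1 with a gap of 2.5 kb, -17.7 with chains of 4 or more, -13.7 with the longer list of replicate 2 and -26 with that of replicate 3. Across the main results, 31 comparisons moved beyond a set margin and 26 did not. The number of chains, their peaks and their percent of distal peaks followed the rule. A gap of 2.5 kb gave 76 chains, 485 peaks and 2.22%, with 14.4% of them in replicate 3; a gap of 10 kb gave 315, 1957 and 8.95%. Chains of 4 or more gave 364, 1788 and 8.18%, with 20.1% in replicate 3. Starts of all annotated transcripts gave 3.60% of distal peaks, with 14.6% in replicate 3. The longer list of replicate 2 gave 416 chains, 2677 peaks and 7.95%, with 13.3% of chain peaks and 19.95% of others in replicate 3. The longer list of replicate 3 gave 31.5% and 50.3%, and an overlap of 50% of each peak gave 13.2% and 25.5%. Without replicate 2, the rule applied to replicate 3 gave 3 chains, 15 peaks and 0.226% of its distal peaks. Of alternatives chosen after seeing the data, joining overlapping peaks gave 3.77% of distal peaks in chains, and leaving out chains on X, on Y or with tRNA genes gave 3.49%. The cause of these moves, beyond the rule each alternative changes, was not tested. Replicate 3 has a signal step 6.05 times as large, so a peak missing there is not shown to be closed. No paired analysis was possible because there is 1 group and 1 library per replicate number.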

Other observations

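A few more chains are given by their values. Those at Zfp36l1, Zfp36l2, Nr4a3, Irf2bp2, Cxcr4 and Cytip fall outside the naming rule and were chosen after their values were seen, so they stand for no group of genes, while Bcl6 and Cd69 come from the CD4 helper and effector lists. Zfp36l1 and Zfp36l2 encode relatives of the RNA-decay factor Zfp36. At Zfp36l1, 6 peaks summed to 11.0 and none was in either list of replicate 3, whereas at Zfp36l2, 8 peaks summed to 12.03 and 2 were in the shorter list. The nuclear receptor gene Nr4a3 had 7 peaks summing to 19.3. The peaks of 5.94 and 7.90 were found in replicate 3 at 6.55 and 7.14, and the other 5 were not. Irf2bp2, a transcriptional corepressor, had 9 peaks summing to 13.8, Cxcr4, a chemokine receptor, 5 summing to 8.42, and Cytip, a regulator of cell adhesion, 6 summing to 10.3. None of the peaks at Irf2bp2, Cxcr4 or Cytip was in either list of replicate 3. At Bcl6, a transcriptional repressor, 6 peaks in the gene and 5 farther away gave 0 in the shorter list and 1 in the longer one. Near Cd69, an early activation marker, 1 of 6 peaks was in the shorter list and 3 were in the longer.

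The weakest chains stood apart from the rest. The last 5 by rank, near or in Tubgcp2, Zfp978, Ighmbp2, H2-Ob and Gm32802, summed to between 0.642 and 1.07, and their peaks had signals of 0.119 to 0.254. None of these peaks was found in replicate 3.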
